A study of Mus musculus with 12 samples.

Results

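Immunoglobulin transcripts were measured in RNA from mouse bone marrow neutrophils that had been cultured for 24 h with PBS or with 1 of 3 bile acids. The genes described are the rows of the deposited count table whose names start with Ighv, Igkv, Iglv, Ighg, Igkc or Iglc, or are Ighm, Ighd, Igha, Ighe or Jchain. These were 207 of the 29737 rows, and no row was named Ighe. They held 195 variable (V) segments, of which 111 were heavy chain, 81 kappa and 3 lambda, together with 4 Ighg genes, 3 Iglc genes, Ighm, Ighd, Igha, Igkc and Jchain. GENCODE vM21 lists 14 of the heavy and 3 of the kappa V segments as pseudogenes, so 178 V genes and 17 V pseudogenes were described. The cells were wild type and came, by the methods of the study, from young female C57BL/6 mice. Each of the 4 groups (PBS, TCA, Tβ-MCA and GCA) had 3 samples, numbered 3, 5 and 6 for PBS and 3, 4 and 5 for each bile acid. TCA (taurocholic acid) and GCA (glycocholic acid) were given at 200 μM, and they are cholic acid joined to taurine and to glycine. Tβ-MCA (tauro-β-muricholic acid) was given at 10 μM by the labels and at 200 μM by the methods, so its dose is uncertain and it was not set against TCA or GCA by a test. All samples were cultured in medium with fetal bovine serum, and whether samples came from separate mice is not stated, so p-values measure the spread between these samples, which may be technical.

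An antibody is made of heavy and light protein chains. In developing B cells 1 heavy chain V segment is joined to a D and a J segment, and 1 light chain V segment of the kappa or lambda locus is joined to a J segment, which gives each B cell clone its own pair of V segments. The joined exon is spliced to a constant gene: Ighm and Ighd encode the IgM and IgD chains of B cells that have not switched class, the Ighg genes and Igha encode IgG and IgA, and Igkc and the Iglc genes encode the constant parts of the light chains. Plasma cells transcribe the joined genes at very high levels, and Jchain encodes the peptide that links IgM or IgA into polymers. Neutrophils are not known to rearrange these loci as a rule, whereas the bone marrow in which they form also holds B cell precursors, mature B cells and plasma cells.

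The sequences show what the counts can and cannot tell apart. Each is the coding part of the last exon, cut to its first 300 bases where it is longer, 5′ to 3′ on the gene's own strand, read from the GENCODE vM21 transcripts (GRCm38). Capitals mark the bases that differ from the closest gene compared. The pair Iglc1 and Iglc3 is shown because the first was called lower under Tβ-MCA and the second was not, and each is set against the other. The pair shared 74.9% of the aligned positions, whereas Iglc2 and Iglc3 shared 96.2%. Iglc1 was read from chr16:19061772-19062071, minus strand, and Iglc3 from chr16:19065382-19065681, minus strand.
Iglc1: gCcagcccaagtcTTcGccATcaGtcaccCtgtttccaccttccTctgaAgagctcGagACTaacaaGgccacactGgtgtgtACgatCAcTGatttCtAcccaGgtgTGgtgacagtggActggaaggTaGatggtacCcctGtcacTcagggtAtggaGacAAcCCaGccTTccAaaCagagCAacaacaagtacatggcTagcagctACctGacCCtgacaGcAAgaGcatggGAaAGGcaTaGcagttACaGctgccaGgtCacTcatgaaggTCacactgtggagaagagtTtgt
Iglc3: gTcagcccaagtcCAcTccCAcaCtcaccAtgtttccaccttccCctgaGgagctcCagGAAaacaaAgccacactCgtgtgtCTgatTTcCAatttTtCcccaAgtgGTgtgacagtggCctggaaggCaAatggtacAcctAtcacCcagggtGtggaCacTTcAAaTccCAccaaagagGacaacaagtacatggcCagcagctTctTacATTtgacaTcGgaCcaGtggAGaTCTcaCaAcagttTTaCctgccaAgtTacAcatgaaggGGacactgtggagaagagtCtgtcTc

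Ighv1-52 and Ighv1-69 are shown because they were the most abundant heavy V segments. Ighv1-52 (chr12:115145492-115145791, minus strand) is set against Ighv1-61, with which it shared 98.7% of the positions, and Ighv1-69 (chr12:115623166-115623465, minus strand) against Ighv1-59, with which it shared 97.4%.
Ighv1-52: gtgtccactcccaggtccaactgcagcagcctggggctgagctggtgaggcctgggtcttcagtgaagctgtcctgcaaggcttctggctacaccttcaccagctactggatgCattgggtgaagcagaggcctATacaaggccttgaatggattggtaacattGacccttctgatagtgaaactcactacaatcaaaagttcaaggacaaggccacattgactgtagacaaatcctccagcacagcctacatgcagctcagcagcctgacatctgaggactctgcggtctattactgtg
Ighv1-69: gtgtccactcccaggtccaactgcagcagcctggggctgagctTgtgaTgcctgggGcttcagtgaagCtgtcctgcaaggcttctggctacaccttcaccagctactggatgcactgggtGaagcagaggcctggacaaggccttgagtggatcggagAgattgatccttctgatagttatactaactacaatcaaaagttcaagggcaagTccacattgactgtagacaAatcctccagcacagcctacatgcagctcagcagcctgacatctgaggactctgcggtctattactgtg

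Igkv10-96 is shown as the most abundant kappa V segment and Igkv15-103 as the kappa V segment with the lowest p under Tβ-MCA. Igkv10-96 (chr6:68631963-68632260, minus strand) is set against Igkv10-94, with 94.6% of positions shared, and Igkv15-103 (chr6:68437628-68437925, plus strand) against Igkv14-126, with 75.2% shared.
Igkv10-96: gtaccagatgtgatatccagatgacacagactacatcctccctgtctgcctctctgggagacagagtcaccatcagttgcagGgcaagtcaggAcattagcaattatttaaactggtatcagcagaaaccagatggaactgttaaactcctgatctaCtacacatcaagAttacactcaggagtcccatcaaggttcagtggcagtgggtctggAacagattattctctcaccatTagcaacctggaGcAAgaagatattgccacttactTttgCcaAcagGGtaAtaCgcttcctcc
Igkv15-103: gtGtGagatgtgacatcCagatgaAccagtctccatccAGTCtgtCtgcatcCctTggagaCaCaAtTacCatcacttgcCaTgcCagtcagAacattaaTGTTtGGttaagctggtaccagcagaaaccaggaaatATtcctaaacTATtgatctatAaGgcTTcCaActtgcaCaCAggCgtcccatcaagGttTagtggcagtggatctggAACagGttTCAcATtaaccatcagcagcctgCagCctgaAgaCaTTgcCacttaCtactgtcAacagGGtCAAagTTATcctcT

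V segments therefore differed in how far a read can be placed. Over the transcripts, 31 of the 195 V segments had no stretch of 50 bases in common with another immunoglobulin gene, and in the median segment 22.8% of such stretches were shared. Ighm, Ighd, Igha, Igkc and Jchain shared none. Counts of the V segments that share stretches with others are uncertain, because the counting could split or drop their reads.

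The libraries held 32757389 to 41375925 counts on genes, and 3 counts, the least taken as detection here, stood for 0.0725 to 0.0916 CPM (counts scaled to a common library size). All other CPM values use totals adjusted by TMM, a scaling for library composition. Samples of a group differed unevenly. The chi-square per gene was 32.2 and 23.8 for Tβ-MCA replicate 5 against replicates 3 and 4, which differed from each other by 14.7. PBS replicate 3 differed from replicates 6 and 5 by 30.2 and 22.3, against 10.1 between these, and TCA replicate 3 from the others by 17 and 18.5, against 4.68. Of all genes, 1278 of 16761 tested had an adjusted p under 0.05 between Tβ-MCA and PBS over all samples. Without Tβ-MCA replicate 5 it was 3076 of 17131, without PBS replicate 3 it was 0 of 17113, and the other samples left out in turn also gave lower counts than the full set. Values without Tβ-MCA replicate 5, which raises the counts, are given beside the main ones for part of the immunoglobulin genes and for no marker gene. Those without the other samples are given for Igkc and for the number of genes called. Without PBS replicate 3 or 5 or Tβ-MCA replicate 3 or 4, 0 of all genes were called. Every call of the main fit named below, of immunoglobulin or marker genes, is thus lost in each of these fits. The cells carried neutrophil transcripts in every sample, such as S100a8 at 1270 to 1804 CPM, and the sum of the 12 neutrophil markers ran from 35291 to 55142 CPM. Counts from 1 to 20 were even numbers in 72.7% of the values over all genes, in 92.1% over kappa V genes and in 52.1% over heavy V pseudogenes. Whether single mates or read pairs were counted is not stated, so a count may not be a fragment.

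Immunoglobulin transcripts were a trace in every sample. Their sum was 85.4, 82.3 and 75.3 CPM with PBS, 78.7, 64.5 and 65.8 CPM with TCA, 50.1, 51.3 and 60.7 CPM with Tβ-MCA, and 71.9, 55.7 and 75.8 CPM with GCA. All 3 Tβ-MCA samples lay below all 3 PBS samples, whose mean of 81.0 ± 5.15 CPM (SD, n = 3) was 1.5 times the Tβ-MCA mean of 54.1 ± 5.80 (SD, n = 3). Ighm, the IgM constant gene, supplied 44.1% to 51.6% of these counts with PBS and 56.6% to 73.1% with Tβ-MCA. Without Ighm the sum was 42.6 ± 1.61 CPM with PBS and 19.0 ± 6.65 with Tβ-MCA (SD, n = 3), which is 2.24 times lower, or 2.79 times lower without Tβ-MCA replicate 5. In bulk RNA, fewer cells that carry a transcript and less of it per cell cannot be told apart.

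Of the 207 genes, 180 had at least 3 counts summed over the 12 samples, 18 had at least 3 in every sample and 49 reached 3 in no sample. The filter on low counts passed 35: all 11 constant genes, Jchain, 13 heavy V genes, 2 heavy V pseudogenes, 6 kappa V genes and 2 lambda V genes. Of these 35, 10 passed with fewer than 3 bile acid samples at the 0.278 CPM that the filter asks for in at least 3 samples. Iglc1, Igkv15-103 and Igkv6-23 reached it in 3 PBS samples, Igkv1-88, Ighv3-6 and Ighv1-80 in 2, and Ighg3, Ighv8-4, Iglv1 and Iglc2 in 1. Per length, in RPKM, which divides reads by gene length and library size, the constant genes with PBS ran from Ighm at 20.1 ± 2.64 and Igkc at 17.8 ± 2.62 (SD, n = 3), which did not differ beyond their spread, down to Ighd at 0.172 ± 0.0429. Between them lay the Iglc genes with a sum of 2.21 ± 0.0863, the Ighg genes with 2.48 ± 0.653, Igha with 0.810 ± 0.307 and Jchain with 0.384 ± 0.123. The 178 V genes summed to 59.4 ± 2.13 RPKM and the 17 V pseudogenes to 5.05 ± 0.222.

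**Figure D1:**
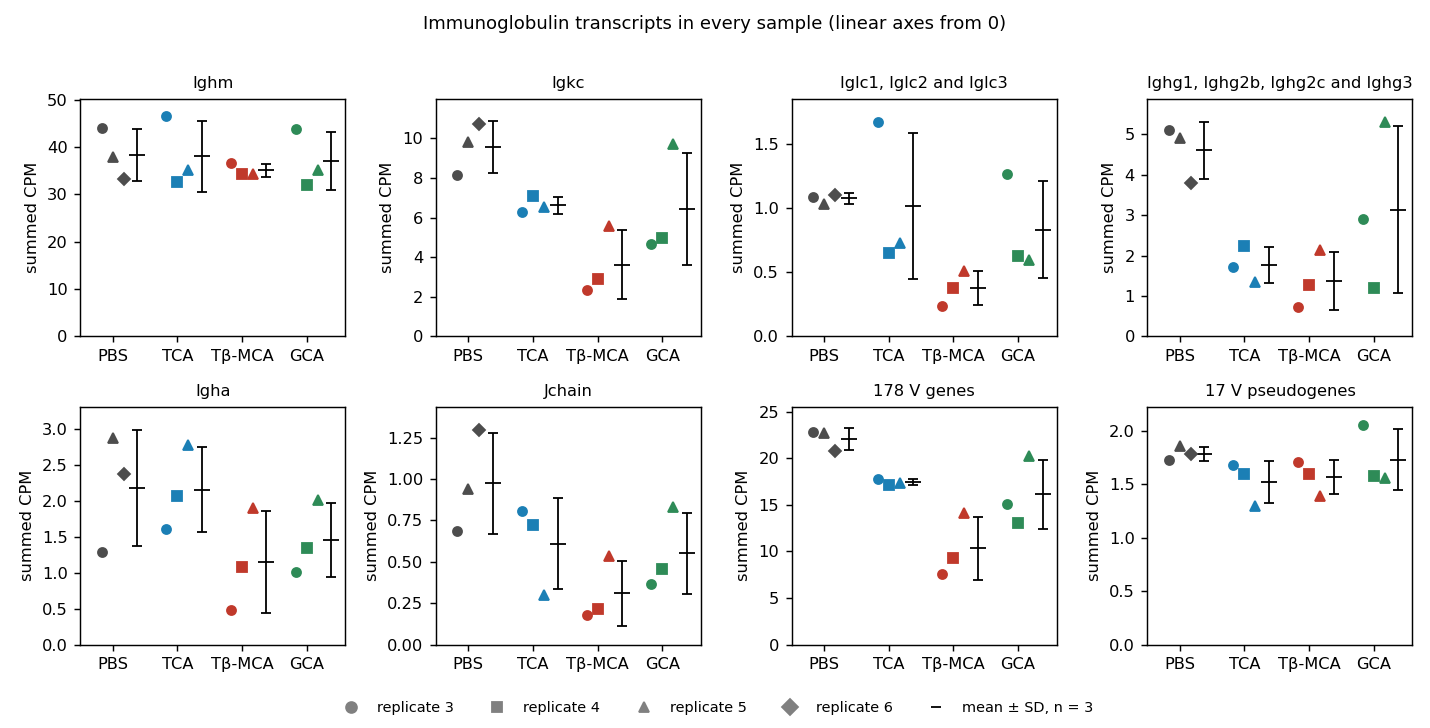
Summed CPM (y axis, linear from 0) of 8 immunoglobulin gene classes in each sample of the 4 groups (x axis), with the mean ± SD of 3 samples beside the points. Ighm overlaps in all groups and the V pseudogenes differ little, while Igkc and the V genes of the Tβ-MCA samples all lie below those of the PBS samples.

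The kappa constant gene fell with Tβ-MCA, while Ighm did not pass the test. Igkc, the kappa constant gene (chr6:70726435-70726966), was at 8.14, 9.79 and 10.7 CPM with PBS and at 2.33, 2.89 and 5.59 CPM with Tβ-MCA, so the groups did not overlap and replicate 5 was the highest of its group. Its log2 fold change was -1.40 (SE 0.33, adjusted p = 0.032, edgeR's quasi-likelihood test), and -1.87 (SE 0.29, adjusted p = 0.00089) without replicate 5. The call was lost, with adjusted p from 0.079 to 0.149 and log2 fold changes from -1.50 to -1.17, when any other single sample of these groups was left out, and with adjusted p = 0.062 when the fit held only the groups compared. Ighm (chr12:113418558-113422730) was at 44.1, 37.9 and 33.2 CPM with PBS and at 36.7, 34.3 and 34.4 CPM with Tβ-MCA. The Tβ-MCA values lay within the PBS range, and the log2 fold change was -0.13 (95% interval -0.44 to 0.18, adjusted p = 0.63). The ratio of Ighm to Igkc per length was 1.53, 1.09 and 0.87 with PBS and 4.43, 3.35 and 1.73 with Tβ-MCA, so every Tβ-MCA sample lay above every PBS sample.

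Across the 35 genes tested, 5 had an adjusted p under 0.05 between Tβ-MCA and PBS, all lower, where 7.62% of all genes tested were called, 3.18% lower and 4.44% higher. They were Igkc, Iglc1, Igkv15-103, Igkv6-23 and Igkv1-88, all of the light chain loci, and the 4 other than Igkc reached the filter's level in more PBS than bile acid samples, so their calls are not independent of the filter. Leaving out PBS replicate 3 or 5 or Tβ-MCA replicate 3 or 4 brought the count to 0, where 0 of all genes were called too, and leaving out PBS replicate 6 brought it to 1, where 64 of 17124 genes were called lower and 104 higher. DESeq2 called 1, where it called 1042 of 16761 genes lower and 1061 higher. With no filter on low counts 21 of 207 were called, all lower, where 1298 of 29737 genes were called lower. These 21 included heavy chain genes, namely Igha, the 4 Ighg genes, Ighv1-26, Ighv1-55, Ighv1-80, Ighv5-16, Ighv9-1 and Ighv9-2. For Igha and the Ighg genes the SE was smaller in that fit than with the filter. Heavy chain genes were also called with the filter but without Tβ-MCA replicate 5, among them Ighg2c and Igha. That the main calls lay in the light chain loci alone thus depended on the filter and on that sample. At an unadjusted p under 0.05 alone 12 were lower and 0 higher, against 12.3% and 12.6% of all genes. At that p and a 2-fold change, the cutoffs of the study, 11 were lower and 0 higher, against 1.86% and 1.09% of all genes. The fold change was negative for 34 of the 35, against 49.4% of all genes, 12 had all Tβ-MCA samples below all PBS samples, against 12.8%, and 0 the reverse, against 14.1%. The median was -1.17 on the log2 scale against 0.00. The 10 genes that passed the filter with fewer than 3 bile acid samples are part of these tallies. The tallies, and those of TCA and GCA against PBS, are therefore not independent of the filter. The 172 genes that did not pass the filter summed to 10.4, 11.5 and 9.81 CPM with PBS and to 3.14, 3.40 and 5.83 CPM with Tβ-MCA, again without overlap. Without Tβ-MCA replicate 5, 11 of 50 genes tested were called, all lower, where 9.44% of all genes were called lower and 18% in either direction, and 21 passed the cutoffs of the study downward, against 3.95%. The 11 included Ighg2c, Igha, Jchain and Igkv10-96.

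**Figure D2:**
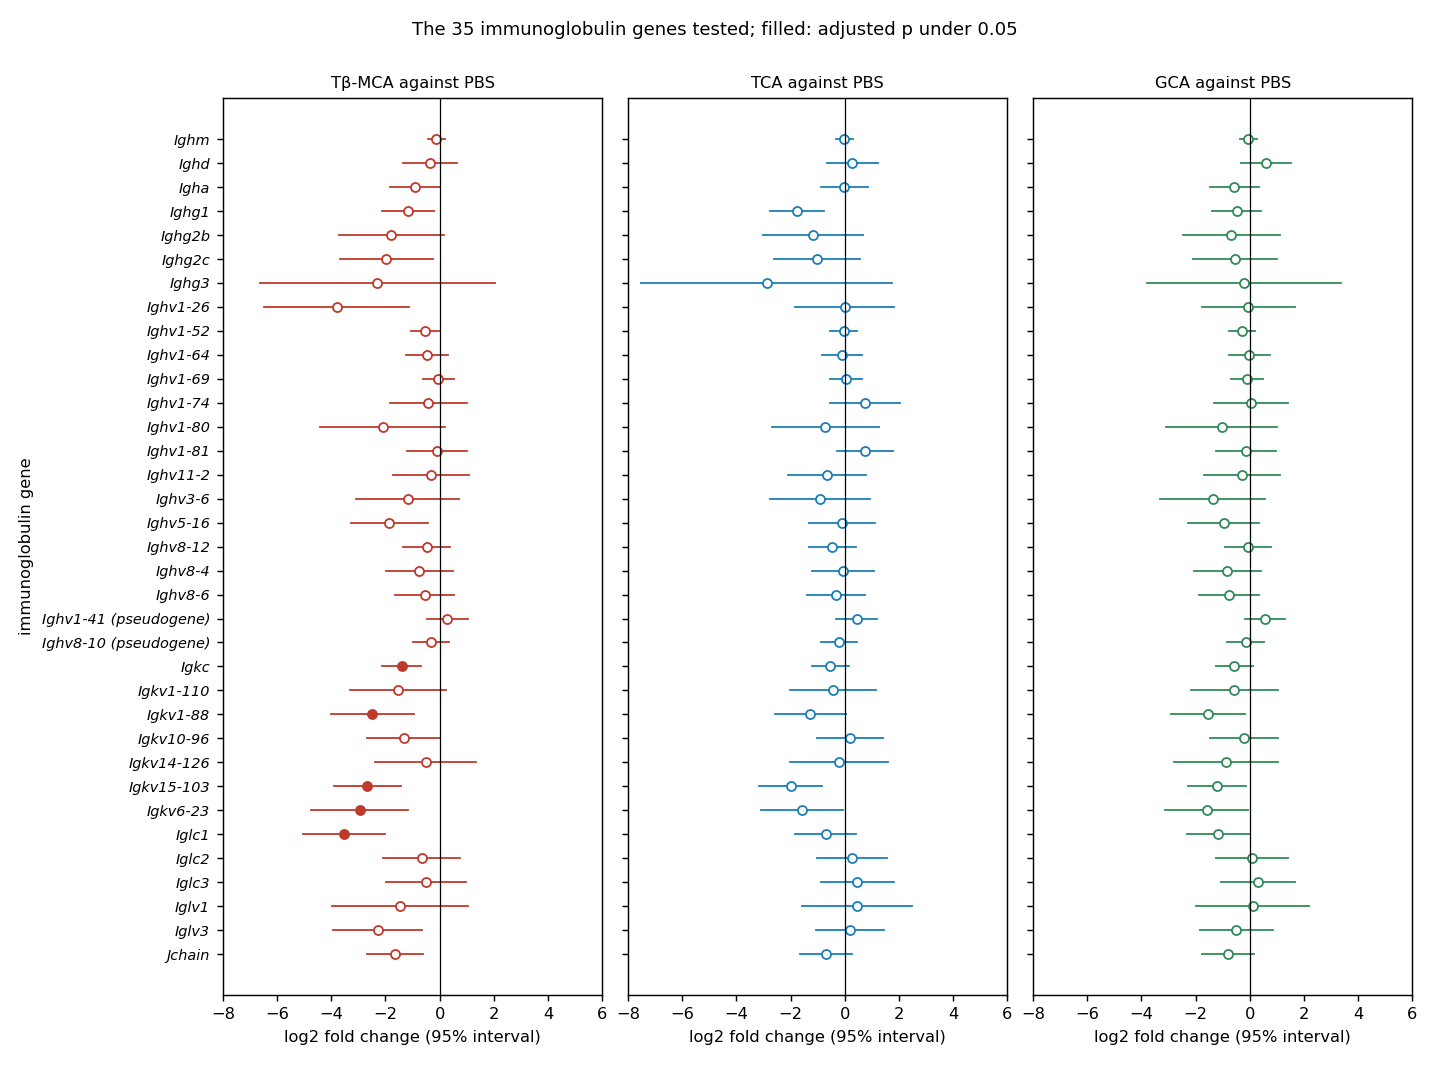
Log2 fold change against PBS (x axis) with its 95% interval for the 35 immunoglobulin genes tested (y axis), 1 panel for each bile acid; filled points have an adjusted p under 0.05. Filled points are seen for 5 light chain genes under Tβ-MCA and for none under TCA or GCA, and the panels share the PBS samples.

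Of the lambda constant genes, which lie on chromosome 16, Iglc1 fell with Tβ-MCA and Iglc2 and Iglc3 did not pass the test. Iglc1 (chr16:19061618-19062071) had 16, 24 and 21 counts with PBS and 2, 0 and 3 counts with Tβ-MCA, and its log2 fold change was -3.54 (SE 0.71, adjusted p = 0.021). Without Tβ-MCA replicate 5 it was -4.18 (SE 0.91, edgeR's adjusted p = 0.0048), and Iglc1 was called in 7 of 13 alternative fits. Iglc3 had 10, 6 and 12 counts with PBS and 4, 10 and 6 with Tβ-MCA (log2 fold change -0.50, SE 0.69, adjusted p = 0.71), and Iglc2 had 12, 5 and 8 against 2, 4 and 10 (-0.67, SE 0.67, adjusted p = 0.58). The groups overlapped for Iglc2 and Iglc3 and not for Iglc1, and the difference between the genes was not tested. Iglc1, Iglc3 and the V segment Iglv1 overlap 2010309G21Rik on the other strand, so their counts depend on a strand setting that is not stated. Iglc2 overlaps Iglj2 and Igkc overlaps Gm43291 on the same strand, which leaves their counts uncertain too. The lambda V segment Iglv3 had 18, 6 and 6 counts with PBS and 0, 2 and 4 with Tβ-MCA (log2 fold change -2.29, SE 0.77, adjusted p = 0.081).

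Constant genes of switched classes did not pass the test with Tβ-MCA, although with no filter on low counts all 5 were called lower, with adjusted p from 2.5e-06 for Ighg2b to 0.042 for Ighg1. That fit left their log2 fold changes nearly unchanged but gave smaller SE, 0.33 against 0.87 for Ighg2b and 0.61 against 1.92 for Ighg3. These calls therefore rest on a smaller estimate of the spread, and Ighg3 was called although its groups overlapped. The 4 Ighg genes summed to 5.10, 4.91 and 3.80 CPM with PBS and to 0.718, 1.27 and 2.14 CPM with Tβ-MCA, which did not overlap. Ighg2c had 38, 55 and 36 counts with PBS and 0, 2 and 32 with Tβ-MCA, so replicate 5 lay near PBS and the other samples near 0. Its adjusted p was 0.145 over all samples and 0.00019 without replicate 5, with log2 fold changes of -1.97 (SE 0.79) and -5.27 (SE 0.71). Ighg2b had 91, 42 and 58 counts against 0, 33 and 24 (adjusted p = 0.23), Ighg1 had 49, 22 and 37 against 24, 12 and 12 (adjusted p = 0.12), and Ighg3 had 0, 48 and 10 against 0, 0 and 12 (adjusted p = 0.51). Igha, the IgA constant gene, was at 1.29, 2.88 and 2.37 CPM with PBS and at 0.478, 1.08 and 1.90 with Tβ-MCA, which overlapped (adjusted p = 0.21, and 0.030 without replicate 5). Switched genes made up 12.6% to 17% of the heavy constant counts with PBS and 3.14% to 10.5% with Tβ-MCA, while Ighd, which unswitched cells splice from the same transcript as Ighm, was at 0.270 to 0.430 and 0.161 to 0.378 CPM (adjusted p = 0.70).

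Jchain (chr5:88519809-88527891) was at 0.688, 0.941 and 1.29 CPM with PBS and at 0.179, 0.216 and 0.535 CPM with Tβ-MCA. The groups did not overlap, and the log2 fold change of -1.63 (SE 0.49) had an adjusted p of 0.053, just above the threshold, and of 0.0093 without replicate 5. TCA at 0.806, 0.725 and 0.298 CPM and GCA at 0.366, 0.458 and 0.830 CPM overlapped with PBS.

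Of the V segments tested, 3 of 6 kappa V genes were called lower with Tβ-MCA, against 3.18% of all genes. None of the 13 heavy V genes, 2 heavy V pseudogenes and 2 lambda V genes was called. Each of the 3 had more PBS than bile acid samples at the filter's level. Igkv15-103 had 18, 34 and 24 counts with PBS and 2, 8 and 2 with Tβ-MCA (log2 fold change -2.66, SE 0.59, adjusted p = 0.024). Igkv6-23 had 16, 12 and 20 against 0, 0 and 6 (-2.95, SE 0.84, adjusted p = 0.045), and Igkv1-88 had 20, 6 and 20 against 4, 2 and 2 (-2.48, SE 0.72, adjusted p = 0.047). The groups did not overlap for these 3 segments. Without Tβ-MCA replicate 5 edgeR's adjusted p was 0.020 for Igkv15-103 and 0.0029 for Igkv6-23, while Igkv1-88 lost its call (0.073). Over the alternative fits, Igkv15-103 was called in 6 of 13, Igkv6-23 in 4 of 13 and Igkv1-88 in 2 of 12. Igkv10-96, the most abundant kappa V segment, had 26, 36 and 46 counts with PBS and 2, 8 and 34 with Tβ-MCA, so replicate 5 lay inside the PBS range; its adjusted p was 0.21, and 0.0038 without that sample.

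The 97 heavy V genes summed to 15.4, 13.9 and 12.6 CPM with PBS and to 6.25, 7.15 and 10.0 CPM with Tβ-MCA, and none of the 13 tested passed the adjusted test. Ighv1-52 (chr12:115145487-115145919), the most abundant, was at 1.98, 2.03 and 2.24 CPM against 1.41, 1.54 and 1.36 CPM, without overlap, and its log2 fold change was -0.53 (SE 0.24, adjusted p = 0.17). Ighv1-69 was at 1.29, 1.0 and 1.78 CPM against 1.55, 1.13 and 1.28 CPM, with a log2 fold change of -0.04 (95% interval -0.63 to 0.55) that turned positive under total library size (0.01), limma (0.03) and the replicate block (0.32). Ighv5-16 had 35, 14 and 8 counts with PBS and 2, 4 and 10 with Tβ-MCA (log2 fold change -1.85, SE 0.67, adjusted p = 0.099). Ighv1-26 had 14, 10 and 8 counts with PBS and 0, 0 and 2 with Tβ-MCA (adjusted p = 0.078), and its counts were even in all 10 samples that had any. Ighv8-12 had 28, 21 and 22 counts with PBS and 13, 14 and 25 with Tβ-MCA (-0.48, SE 0.41), which overlapped.

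The V pseudogenes, which cannot encode a chain, differed by less than the V genes. Their sum was 1.72, 1.85 and 1.78 CPM with PBS and 1.70, 1.59 and 1.39 CPM with Tβ-MCA, against 22.8, 22.7 and 20.8 CPM and 7.59, 9.28 and 14.2 CPM for the V genes. In both sets every Tβ-MCA sample lay below every PBS sample, narrowly so for the pseudogenes. The PBS mean was thus 1.14 times the Tβ-MCA mean for the pseudogenes and 2.14 times for the V genes, and 1.08 and 2.62 times without replicate 5, and the difference between the sets was not tested. Pseudogenes made up 9.92% to 11.7% of the heavy V counts with PBS and 12.2% to 21.1% with Tβ-MCA. Ighv8-10 and Ighv1-41 were the pseudogenes tested. Ighv8-10 had 23, 20 and 23 counts with PBS and 15, 16 and 23 with Tβ-MCA (log2 fold change -0.32, SE 0.32), and Ighv1-41 had 13, 12 and 13 counts with PBS and 18, 18 and 11 with Tβ-MCA (log2 fold change 0.29, SE 0.36).

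**Figure D3:**
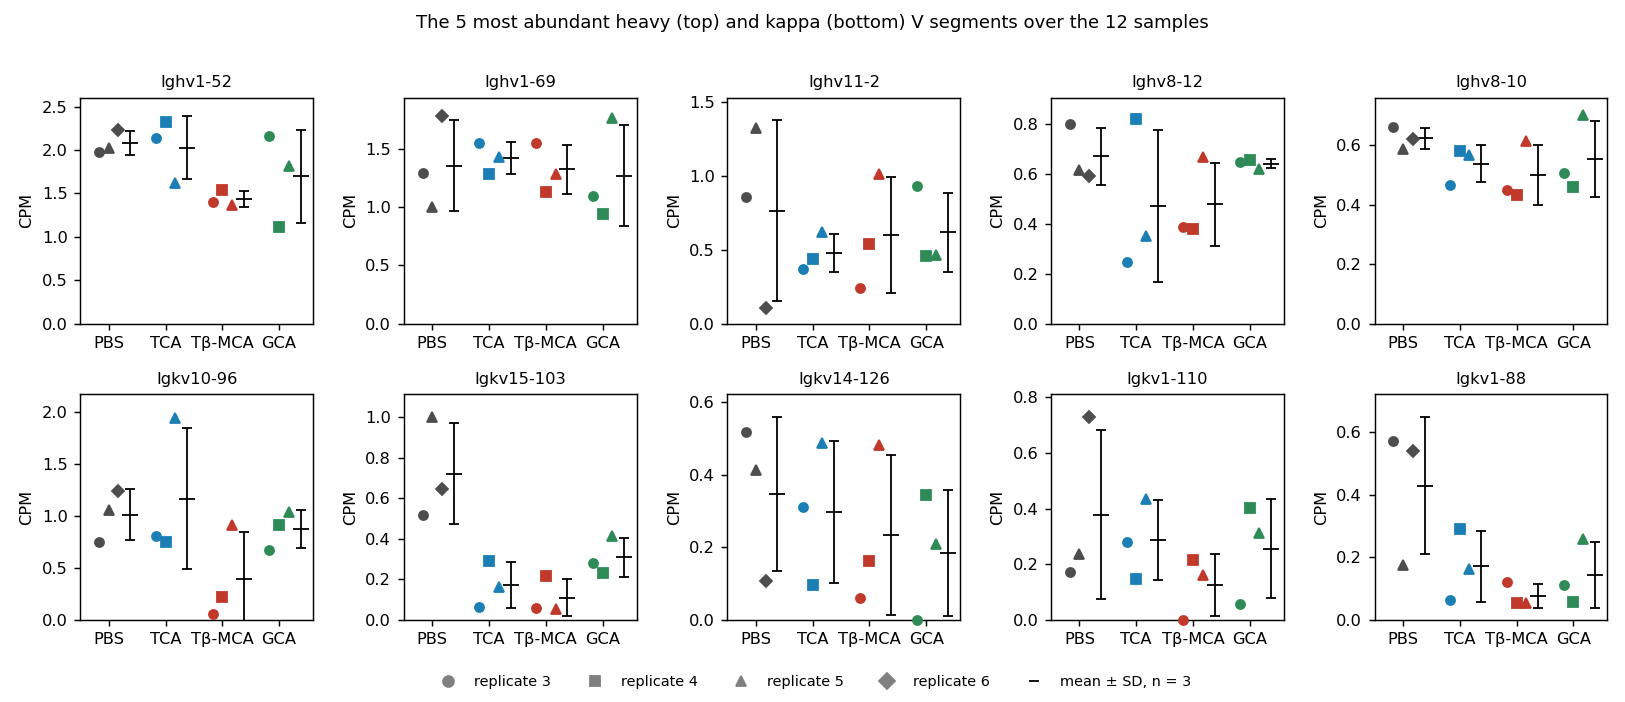
CPM (y axis, linear from 0) of the 5 heavy and 5 kappa V segments with the highest mean over all samples, in each sample of the 4 groups (x axis), with the mean ± SD of 3 samples. Igkv15-103 is lower in every bile acid sample than in every PBS sample, while Ighv1-69 and Ighv11-2 overlap in all groups.

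Among the genes that mark B cells and plasma cells, some were lower with Tβ-MCA and most did not pass the test. Of the 14 B lineage markers, 12 were tested; with Tβ-MCA 1 fell and 0 rose, against 3.18% and 4.44% of all genes. At an unadjusted p under 0.05 3 were lower and 1 higher, against 12.3% and 12.6%, and the median log2 fold change was -0.64. Cd79a, a signalling chain of the B cell receptor, was at 3.70, 3.47 and 3.48 CPM with PBS and at 1.76, 1.86 and 2.43 CPM with Tβ-MCA (log2 fold change -0.81, SE 0.21, adjusted p = 0.033). Cd79b, its partner, was at 1.43, 1.26 and 1.64 against 0.987, 0.432 and 1.12 CPM (adjusted p = 0.15). Ms4a1, a B cell surface protein, was at 0.108 to 0.344 CPM with PBS and at 0.0535 to 0.239 CPM with Tβ-MCA (adjusted p = 0.33). Cd37, which other leukocytes also express, supplied most of the summed B lineage list, which was 338 to 374 CPM with PBS and 272 to 332 CPM with Tβ-MCA. Bank1, an adaptor of B cell signalling, was at 2.24 to 3.07 CPM with PBS and at 3.20 to 3.83 with Tβ-MCA (unadjusted p = 0.045, adjusted p = 0.19), the one higher. Pax5, Ebf1, Cd22, Blk, Blnk and Fcrla had adjusted p between 0.30 and 0.67, and Fcer2a and Cr2 reached at most 0.294 and 0.290 CPM in any sample.

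Of the 12 plasma cell markers, 9 were tested, and 2 fell with Tβ-MCA and 0 rose, against 3.18% and 4.44% of all genes. These were Xbp1, the factor that expands the secretory machinery (log2 fold change -0.49, SE 0.10, adjusted p = 0.021), and Txndc5, a protein-folding enzyme of the endoplasmic reticulum (-0.80, SE 0.20, adjusted p = 0.035), and many secreting cells express both. Markers closer to plasma cells were at or near 0: Tnfrsf17, the receptor BCMA, was at 0 in every sample but Tβ-MCA replicate 4 (0.054 CPM), and Mzb1 and Derl3 reached at most 0.172 and 0.161 CPM in any sample. Sdc1 and Prdm1 were at 1.99 to 2.81 and 1.98 to 2.53 CPM with PBS and at 1.58 to 2.41 and 0.777 to 2.51 CPM with Tβ-MCA (adjusted p = 0.42 and 0.22). Fkbp11 and Slamf7 had log2 fold changes of 0.67 (SE 0.51) and 0.24 (SE 0.11), Eaf2 of 0.00 (SE 0.22), and Irf4 and Tnfrsf13b of -0.30 (SE 0.23) and -0.43 (SE 0.15), with adjusted p between 0.094 and 0.99. Of the 8 B progenitor genes with a row, 4 were tested, and 1 rose and 0 fell, against 4.44% and 3.18% of all genes. Il7r, a cytokine receptor that T cells also carry, rose (log2 fold change 0.80, SE 0.22, adjusted p = 0.043). Vpreb1, a part of the surrogate light chain, was at 3.59 to 5.83 CPM over all samples (log2 fold change 0.04, SE 0.18), and Erg, which other progenitors also express, at 76.5 to 107 CPM (-0.11, SE 0.11). Dntt was at 0.054 to 0.806 CPM (-0.71, SE 0.58), and Rag1, Igll1, Vpreb3 and Rag2 reached at most 0.401, 0.124, 0.118 and 0.062 CPM in any sample.

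Some markers of other cells also differed between Tβ-MCA and PBS, while the erythroid sums overlapped. The 8 monocyte and macrophage markers summed to 1024 to 1047 CPM with PBS and to 283 to 800 CPM with Tβ-MCA, and 5 of 8 were lower at an unadjusted p under 0.05, against 12.3% of all genes, with none passing the adjustment. Among neutrophil markers, 4 of 12 fell, against 3.18% of all genes. At an unadjusted p under 0.05, 10 of 12 were lower and 0 higher, against 12.3% and 12.6% of all genes. The median log2 fold change was -0.75, and the 12 summed to 44349 to 55142 CPM with PBS and to 35291 to 40377 CPM with Tβ-MCA. Ly6g, the marker named in the labels for the sort, was at 17.8 to 21.4 CPM with PBS and at 7.53 to 12.9 CPM with Tβ-MCA (log2 fold change -0.99, SE 0.19, adjusted p = 0.021). The T cell list summed to 2.58 to 3.94 CPM with PBS and to 1.67 to 2.51 CPM with Tβ-MCA, the plasmacytoid dendritic cell list to 14.7 to 19.2 and 11.3 to 14.7 CPM, and the erythroid list to 1.35 to 2.53 and 1.44 to 2.32 CPM. Of 13 genes of immunoglobulin transcription and receptor signalling, 12 were tested and 1 was called, against 7.62% of all genes, which was Pou2f2, a factor that binds the octamer of immunoglobulin promoters (log2 fold change -0.57, SE 0.14, adjusted p = 0.034). At an unadjusted p under 0.05 3 were lower and 2 higher, against 12.3% and 12.6% of all genes. The 2 higher were Fcgr2b, an Fc receptor, and Syk, a kinase (0.41, SE 0.12, and 0.19, SE 0.06). With TCA and GCA, no gene of any of these lists was called, where 0% of all genes tested were called. The part of these genes and cells in the immunoglobulin result was not tested.

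With TCA none of the 35 genes was called against PBS by edgeR, where 0% of all genes tested were called, and DESeq2 called 0. At an unadjusted p under 0.05 3 were lower and 0 higher, against 1.77% and 1.49% of all genes, and DESeq2 gave 2. The fold change was negative for 24 of 35, against 49.8%, and 7 had all TCA samples below all PBS samples, against 4.76%, while 2 had the reverse, against 4.91%. With the 2-fold cutoff 3 were lower (0.239% of all genes) and 0 higher (0.227%). Igkc was at 6.26, 7.08 and 6.52 CPM with TCA, below all 3 PBS samples, and Ighm at 46.6, 32.5 and 35.2 CPM. Ighg1 had 7, 8 and 18 counts with TCA (log2 fold change -1.76, SE 0.47, unadjusted p = 0.0020), and Igkv15-103 had 2, 12 and 6 (-2.0, SE 0.55, unadjusted p = 0.0022). Igkv6-23 had 10, 2 and 4 counts (-1.58, SE 0.72, unadjusted p = 0.043). The adjusted p of these genes was 0.9999. Igkv15-103 and Igkv6-23 reached the filter's level in more PBS than bile acid samples, so their low p is not independent of the filter. The V genes summed to 17.8, 17.2 and 17.4 CPM, also below every PBS sample.

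With GCA none was called either by edgeR or by DESeq2, where 0% of all genes were called. At an unadjusted p under 0.05 4 were lower and 0 higher, against 1.78% and 1.75% of all genes, and the same 4 passed the 2-fold cutoff (0.316% lower and 0.215% higher over all genes). The fold change was negative for 29 of 35, against 49.7%, and 3 had all GCA samples below all PBS samples, against 4.83%, while 1 had the reverse, against 4.71%. The 4 genes were Igkv1-88, Igkv15-103, Igkv6-23 and Iglc1, with log2 fold changes from -1.59 to -1.16. Each of them reached the filter's level in more PBS than bile acid samples, so their low p is not independent of the filter. GCA samples were spread: Igkc was at 4.65, 4.95 and 9.70 CPM, so replicate 5 lay within the PBS range and the others below it, and the 4 Ighg genes summed to 2.90, 1.20 and 5.31 CPM. Ighm was at 43.9, 32.0 and 35.2 CPM. The 3 comparisons with PBS share the PBS samples, so their values are not independent of each other.

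TCA and GCA, which differ in the amino acid joined to cholic acid, were compared at the same dose and time, and this was the single pair compared. None of the 35 genes was called by edgeR or DESeq2, where 0% of all genes were called, and 1 was higher with GCA and 0 lower at an unadjusted p under 0.05, against 1.28% and 1.18% of all genes. The same held with the 2-fold cutoff, against 0.185% and 0.257%. The fold change was negative for 24 of 35, against 50.1%, and 2 genes had all GCA samples below all TCA samples and 0 the reverse, against 4.19% and 3.82%. The gene with the low p was Ighg1, with 24, 16 and 40 counts under GCA and 7, 8 and 18 under TCA (log2 fold change of GCA over TCA 1.27, 95% interval 0.24 to 2.30, unadjusted p = 0.019, adjusted p = 0.9998). With the replicate number as a block its log2 fold change was 1.25 (unadjusted p = 0.014). The intervals were -0.74 to 0.66 for Igkc, -0.35 to 0.27 for Ighm, -1.13 to 0.87 for Jchain and -1.46 to 0.34 for Igha, which is the range of differences left by these samples.

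A few V segments led in most samples. Ighv1-52 led the heavy V segments in 11 of 12 samples, with 11.6% to 17.6% of the heavy V counts, and Ighv1-69 led in Tβ-MCA replicate 3 with 19.6%. Igkv10-96 led the kappa V segments in 10 samples, with 10.9% to 36.0% of the kappa V counts, and Igkv1-117 and Igkv6-15 led in Tβ-MCA replicates 3 and 4, which held 40 and 77 kappa V counts in all. The Ighv1 family, with 57 of the 111 heavy segments, held 62.8% of the heavy V counts, and the Ighv8 family, with 11, held 15.3%. Ighv11-2, which pairs with Igkv14-126 in B-1 cells of the mouse and was the third most abundant heavy V segment, varied within groups, with 30, 45 and 4 counts in PBS, 12, 18 and 23 in TCA, 8, 20 and 38 in Tβ-MCA and 33, 16 and 18 in GCA. Igkv14-126 had 18, 14 and 4 counts, 10, 4 and 18, 2, 6 and 18, and 0, 12 and 8 in the same order.

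At least 3 counts were found for 65, 67 and 69 of the 195 V segments with PBS, for 47, 56 and 52 with TCA, for 23, 33 and 44 with Tβ-MCA and for 49, 52 and 70 with GCA. Fewer segments go with fewer V counts, which ran from 835 to 856 with PBS and from 311 to 581 with Tβ-MCA. When every sample was thinned to 311 V counts, the expected numbers were 34.8, 42.1 and 36.7 with PBS and 23.0, 29.8 and 31.4 with Tβ-MCA, so the groups did not overlap but lay closer. Counting every segment with at least 1 count after thinning, they overlapped, with 84.1, 76.7 and 80.6 against 56.0, 55.6 and 79.4, as did the kappa segments with at least 3 counts when thinned to 40 kappa V counts, with 4.60, 4.79 and 4.50 against 4.00, 6.27 and 3.36. The effective number of segments, the inverse of the summed squared shares, was 33.0 to 40.1 with PBS, 27.7 to 29.2 with TCA, 14.9 to 29.7 with Tβ-MCA and 27.5 to 37.5 with GCA. The shares of the V segments overlapped by 0.617 on average (0.489 to 0.700) between samples of different groups with the same number, over 15 pairs, and by 0.594 (0.456 to 0.705) with different numbers, over 39 pairs, where 1 is the same shares. These pairs reuse the same samples and the ranges overlap.

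Kappa made up most light chain counts in every sample. The kappa share, over V and constant genes, was 89.5%, 91.8% and 92.5% with PBS (mean 91.3 ± 1.55, SD, n = 3) and 89.4%, 92.0% and 93.5% with Tβ-MCA (91.6 ± 2.07, SD, n = 3), although Tβ-MCA samples held 118 to 358 kappa and 14 to 25 lambda counts against 522 to 691 and 55 to 61 with PBS. TCA replicate 3 at 81.8% (95% exact binomial interval 77.8 to 85.3) and GCA replicate 3 at 81.2% (76.9 to 85.1) lay below all other samples, whose intervals reached down to 82.8% in Tβ-MCA replicate 3 and to at least 86.8% in the rest. Both low samples carry the number 3, and the other samples with that number, of PBS and Tβ-MCA, were at 89.5% and 89.4%. These intervals cover counting error only, since PCR duplicates and mates are not independent molecules.

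**Figure D4:**
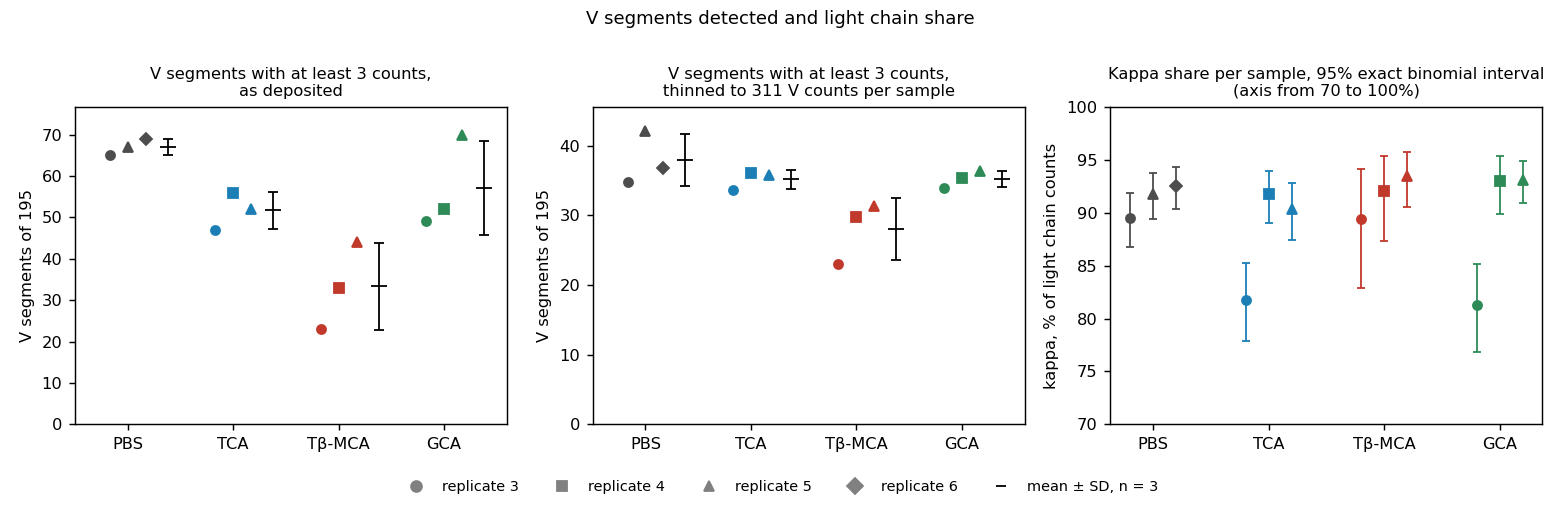
V segments with at least 3 counts in each sample as deposited (left) and after thinning to 311 V counts (middle, expected number), with the mean ± SD of 3 samples, and the kappa share of light chain counts in percent with its 95% exact binomial interval (right, axis from 70 to 100%). Tβ-MCA samples lie lowest on the left, move closer to the rest in the middle, and the replicates numbered 3 of TCA and GCA have the lowest kappa shares.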

How the data were processed

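The authors trimmed reads of the 12 libraries with Trimmomatic 0.36, aligned them with STAR 2.5.3a to GRCm38 (mm10) and counted them on exons with featureCounts (Subread 1.5.1), per the labels. The deposited counts were raw, and the deposited RPKM were scaled by gene length and library. Strand setting and mate counting are not given in the sources used here. Groups followed the labels. The label of Ly6G+ cells differs from the methods, which name a neutrophil enrichment kit.

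Counts were normalized by TMM, filtered by filterByExpr and tested by edgeR 4.0.16 (R 4.3.3; robust quasi-likelihood) over all 12 samples, with Benjamini-Hochberg adjustment over all 16761 genes tested. Alternatives used DESeq2 1.42.0 and limma 3.58.1 on log2(RPKM + 1), which understates the change of low genes, for genes whose mean RPKM reached 0.5. The fits were tested on simulated data. Sums, shares and detection carry no test. Python 3.11.15 with scipy 1.17.1 and matplotlib 3.10.9 did the rest. Genes and lists were chosen with earlier results of these data known. Named genes were all constant genes, Jchain, the 5 most abundant V segments per locus, the leading heavy V segment of each sample, up to 5 genes per direction with the lowest p in each comparison, and the marker lists, of which 1 gene is not reported here. Ighv1-41 was chosen as the other pseudogene tested and Igkv1-117, Igkv6-15 and 2010309G21Rik for what they led or overlapped, after their values were seen.

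Deviations from the group means over genes (log2 CPM with 0.5 added) correlated between same-numbered TCA and GCA samples with r of 0.108 to 0.404 over 3 pairs. Between differently numbered ones r was -0.318 to 0.142 over 6 pairs. The ranges overlap, so pairing by number is possible but not settled, and the labels do not say what the number marks. The values printed come from the fit without the number, and the fit with it as a block is an alternative. PBS shares only 2 numbers with each bile acid. No 2 libraries of a group agreed within sampling noise, with a chi-square per gene of at least 4.68.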

Additional observations from a re-analysis of the deposited data

How the results depend on the processing

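Between Tβ-MCA and PBS, the number of immunoglobulin genes called was 5 over all samples, and 1 by DESeq2. It was 0 when the fit held only these groups (of 24 tested, with 7 at an unadjusted p under 0.05, where 0 of 16064 genes were called). With no filter on low counts it was 21 of 207 (1298 of 29737 genes lower). The replicate block with no filter, chosen after seeing the data, gave 12 (1342 of 29737 genes lower). At an unadjusted p under 0.05 with a 2-fold change it was 11 (1.86% of all genes lower). Leaving out 1 sample gave 0 to 11: 11 without Tβ-MCA replicate 5, 1 without PBS replicate 6, and 0 without PBS replicate 3 or 5 or Tβ-MCA replicate 3 or 4. The cause was not tested. With the replicate block the count was 4 (727 of all genes lower), and 0 in each other comparison. It changed no call between GCA and TCA. Where 0 were called, no filter gave 2 between TCA and PBS (Ighg1 and Ighg3, lower), where 22 of 29737 genes were called lower and 15 higher. Between GCA and TCA it gave 1 (Ighg3, higher), where 18 of all genes were called higher and 24 lower. The SE of Ighg3 was smaller without the filter, 0.66 against 2.07 between GCA and TCA and 0.65 against 2.05 between TCA and PBS. The block with no filter gave 1 between TCA and PBS, where 32 of all genes were called lower and 44 higher. The 2-fold rule gave 3, 4 and 1 for TCA with PBS, GCA with PBS and GCA with TCA. Over all genes it gave 0.239% lower, 0.316% lower and 0.185% higher in the same order. Igkc was negative in all 13 alternatives, from -1.87 to -1.17, and called in 7, with an adjusted p of up to 0.15. Ighv1-69 turned from -0.04 to 0.0053 (total library size), 0.028 (limma) and 0.32 (replicate block, with and without the filter), and ran from -0.22 to 0.20 with 1 sample left out. Ighv11-2 ran from -0.94 to 0.33 around -0.33 with 1 sample left out, positive without PBS replicate 5 or Tβ-MCA replicate 3.

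The log2 ratio of the summed level, Tβ-MCA over PBS, was -0.58, and -0.82 with RPKM, -1.0 over V segments with at least 10 counts and -1.17 without Ighm. For TCA it was -0.22, and -0.43 without Ighm, and for GCA -0.26, and -0.44 over those V segments and -0.47 without Ighm. V segments detected, on average 67.0, 51.7, 33.3 and 57 in PBS, TCA, Tβ-MCA and GCA from 3 counts on, were 99.0, 86.0, 68.7 and 94.3 from 1 count and 27.7, 22.3, 11.3 and 20 from 10 counts. The kappa share and the overlap of V shares moved by less than the spread between replicates under their alternatives. Depth limits single V segments, most of which had too few counts to test.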

Other observations

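Joining (J) segments, which lie outside the genes described above, gave a further reading of the same loci. The 5 kappa J segments had 54, 42 and 70 counts with PBS, 42, 30 and 36 with TCA, 15, 15 and 40 with Tβ-MCA and 27, 29 and 58 with GCA, so the Tβ-MCA samples lay below the PBS samples, with means of 1.56 ± 0.33 and 0.64 ± 0.37 CPM (SD, n = 3). The 4 heavy J segments had 39, 32 and 18 counts with PBS and 28, 16 and 17 with Tβ-MCA, which overlapped. The 3 lambda J segments had 13, 3 and 12 counts with PBS and 3, 7 and 5 with Tβ-MCA. Ighd4-1, a diversity segment, had 7, 10 and 8 counts with PBS and 14, 7 and 16 with Tβ-MCA. These genes were looked at after the values of the V segments were seen, and no test was run on them.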
